A study of Mus musculus with 2 samples.

Results

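The vascular endothelial growth factor (VEGF) system was described through 10 genes, chosen by symbol from the 32574 genes of the deposited matrices: the ligands Vegfa, Vegfb, Vegfc, Vegfd and Pgf, the receptors Kdr, Flt1 and Flt4, and the neuropilins Nrp1 and Nrp2. Their unique molecular identifiers (UMIs, each standing for 1 captured transcript) were counted in adductor muscle taken 7 days after femoral artery ligation, which closes the main artery of the hind limb. One single-cell library came from wild-type (WT) mice and the other from Apoa1bp-/- mice, called the knockout here. The controls were littermates, both genotypes underwent the ligation, and 4 mice per genotype were operated on. The sources used here do not say whether each library pooled the 4 mice, or give their age or strain. Since each genotype has a single library, differences could not be checked against replicates and no test was made. Every interval is an exact 95% interval that covers counting error only.

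In this system secreted ligands bind receptor tyrosine kinases that are carried mainly by endothelial cells. Vegfa, which low oxygen induces, drives sprouting and permeability through Kdr (VEGFR2), while Flt1 (VEGFR1) binds Vegfa, Vegfb and Pgf and also exists as a soluble decoy. Vegfc and Vegfd act on Flt4 (VEGFR3), the main receptor of lymphatic endothelium, and the neuropilins are co-receptors that are shared with the class 3 semaphorins. A count per gene does not separate soluble from membrane-bound Flt1, or the splice forms of Vegfa.

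The promoters of the 3 receptor genes are shown because these genes share their main cell class and were all lower there in the knockout library. Sequences are from RefSeq on GRCm38.p6, matched by symbol for all 10 genes (12 windows, since Vegfa and Pgf have 2 starts each), with the matrices' own build not given in the sources used here. Each runs 5′ to 3′ in the direction of transcription, from 250 bases before to 50 after the annotated start. Capitals mark the core letters of ETS factor sites, GGAA, or their reverse complement. Kdr lies at chr5:75978406-75978705 and Flt1 at chr5:147725962-147726261, both on the minus strand, and Flt4 at chr11:49609429-49609728 on the plus strand.
Kdr: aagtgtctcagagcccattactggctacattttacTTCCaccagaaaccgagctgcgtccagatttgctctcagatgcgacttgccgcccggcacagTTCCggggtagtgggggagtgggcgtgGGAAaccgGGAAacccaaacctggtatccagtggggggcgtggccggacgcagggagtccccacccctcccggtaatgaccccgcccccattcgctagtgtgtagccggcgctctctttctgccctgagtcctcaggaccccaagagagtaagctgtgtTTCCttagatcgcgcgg
Flt1: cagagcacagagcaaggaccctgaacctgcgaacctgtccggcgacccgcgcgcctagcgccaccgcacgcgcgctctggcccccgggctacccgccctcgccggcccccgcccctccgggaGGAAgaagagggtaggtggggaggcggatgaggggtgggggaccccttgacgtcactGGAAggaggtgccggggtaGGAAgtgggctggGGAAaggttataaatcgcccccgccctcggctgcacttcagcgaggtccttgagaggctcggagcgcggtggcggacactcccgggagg
Flt4: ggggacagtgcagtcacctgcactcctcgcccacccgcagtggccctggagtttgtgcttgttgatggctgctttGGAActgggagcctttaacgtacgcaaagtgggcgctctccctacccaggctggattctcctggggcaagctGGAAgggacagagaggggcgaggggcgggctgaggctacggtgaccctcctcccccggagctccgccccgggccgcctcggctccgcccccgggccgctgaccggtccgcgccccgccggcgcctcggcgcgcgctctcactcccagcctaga
These windows held 5, 4 and 2 matches, counted on both strands. Of 32851 promoter windows of the same length, 95.98% held at least 1 match, with a median of 3. As many matches as in Kdr were found in 28.6% of all windows, as many as in Flt1 in 46.3% and as many as in Flt4 in 84.6%. The GC box GGGCGG had 2 matches in Kdr and 3 each in Flt1 and Flt4, and 35.7% of all windows held at least 1. As many as in Kdr were found in 19.5% of all windows, and as many as in Flt1 and Flt4 in 10.7%. The hypoxia response core ACGTG was found in 19.6% of all windows and in 1 of the 12 member windows, that of the inner Vegfa start. None of the 3 motifs contains another, and a match describes letters, not a bound site.

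After removal of poor barcodes and called doublets, the WT library kept 12285 cells (median depth 4161 UMIs) and the knockout library 8515 cells (median depth 6559 UMIs), and 43 barcodes occurred in both. The targeted gene, now named Naxe, was counted 3319 times in WT and 0 times in the knockout. Cells were gated into 16 marker-defined classes, none of whose markers is a member, and short names such as endothelial cells stand for cells that look like that type by their markers. Values are given for the 12 classes that reached 50 cells in both libraries, and 1788 WT and 1336 knockout cells stayed ungated. Macrophages (5263 WT and 3428 knockout cells) and fibroblasts (3263 and 1150) were the most numerous, and there were 312 and 297 endothelial cells. The endothelial gate held all 10 of its markers, at a summed 8044 and 7859.9 CPM (UMIs per 1000000 UMIs of the class), but its WT cells were shallower, with a median of 2247 UMIs against 6943. Below, the WT value stands first and every genotype ratio is knockout over WT. In such data fewer transcripts per cell and a changed mix of cells within a gate cannot be told apart from these sums alone, so subclasses are given where they hold enough UMIs.

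Fibroblasts held more Vegfa UMIs than any other class, and had 42.1 CPM in the WT library (39.2 to 45.1) and 34.1 CPM in the knockout library (30.9 to 37.5). They held 53.7% of all WT Vegfa UMIs but 31.9% of those of the knockout, and ungated cells held 19.5% and 24.6%. The fibroblast level of Vegfa over that of macrophages was 4.31 (3.74 to 4.97) in WT and 3.27 (2.803 to 3.83) in the knockout. Fibroblasts ranked first of the 12 classes in both libraries, though their interval overlapped those of Schwann and NK (natural killer) cells in WT and of NK cells in the knockout, classes with few Vegfa UMIs. Satellite cells and myoblasts, the muscle precursors, were at 20.2 and 24.95 CPM, and macrophages at 9.77 and 10.4 CPM. Endothelial cells, which carry the receptors, held 10 and 7 Vegfa UMIs. Neutrophils were left out of the 12 classes because only 46 WT cells passed their gate. They had Vegfa at 66.2 CPM from 4 UMIs and 85.2 CPM from 20 UMIs, each above the fibroblast level of the same library.

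Vegfb, a ligand of Flt1, was highest in muscle fibres, at 114 CPM in WT (79.6 to 159) and 151 CPM in the knockout (112 to 199). These intervals did not overlap that of the next class, satellite cells and myoblasts, at 38.02 and 41.9 CPM, but in WT the wide Schwann cell interval (9.84 to 92.5, 4 UMIs) reached into that of the fibres. Muscle fibre barcodes were 139 and 208, with medians of 1059 and 1151 UMIs. Fibroblasts were at 37.5 and 30.7 CPM and macrophages at 37.2 and 30.7 CPM, with overlapping intervals within each library. As the largest class, macrophages held 43.6% and 36.01% of Vegfb UMIs.

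Vegfc, the lymphangiogenic ligand, was at 19.3 and 18.5 CPM in endothelial cells, 7.38 and 8.04 CPM in fibroblasts and 4.17 and 5.17 CPM in satellite cells and myoblasts. NK cells had 31.5 CPM in WT, from 5 UMIs in 5 of 67 cells, and 44.9 CPM in the knockout, from 16 UMIs in 13 of 98 cells. T cells, the other lymphoid class, held 0 and 0 Vegfc UMIs, which allows up to 11.1 and 7.903 CPM (3 UMIs of the class total). The NK and endothelial intervals overlapped in WT and not in the knockout. Within the endothelium Vegfc was at 157 and 139 CPM in cells gated as arterial (24 and 30 cells) against 4.21 and 6.51 CPM in cells gated as capillary. The arterial over the capillary level was 37.2 (11.3 to 158) in WT and 21.4 (11.3 to 42.8) in the knockout.

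Vegfd UMIs were largely those of fibroblasts, which had 48.7 and 28.7 CPM and held 86.6% and 72.9% of them. Ungated cells held another 11.2% and 24.6%, and macrophages were at 0.585 and 0.155 CPM. Endothelial cells had 0 and 0 Vegfd UMIs, which allows up to 2.22 and 1.03 CPM. The fibroblast interval did not overlap that of any other of the 12 classes in either library.

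Pgf, placental growth factor, a ligand of Flt1, was highest in WT in endothelial cells at 37.03 CPM (27.5 to 48.8), followed by fibroblasts at 15.9 CPM and mural cells, the pericytes and smooth muscle, at 12.9 CPM (5 UMIs). The WT endothelial interval overlapped those of mural, NK and Schwann cells, with 5, 2 and 0 Pgf UMIs, but not that of fibroblasts. In the knockout library mural cells were at 29.1 CPM (26 UMIs) and endothelial cells at 21.9 CPM, with overlapping intervals, and fibroblasts at 6.33 CPM. Cells gated as tip cells, the leading cells of sprouts, had Pgf at 266 and 223 CPM in 9 and 10 cells. The tip over the capillary level of Pgf was 13.3 (6.496 to 27.03) in WT and 19.97 (11.4 to 35.4) in the knockout.

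**Figure D1:**
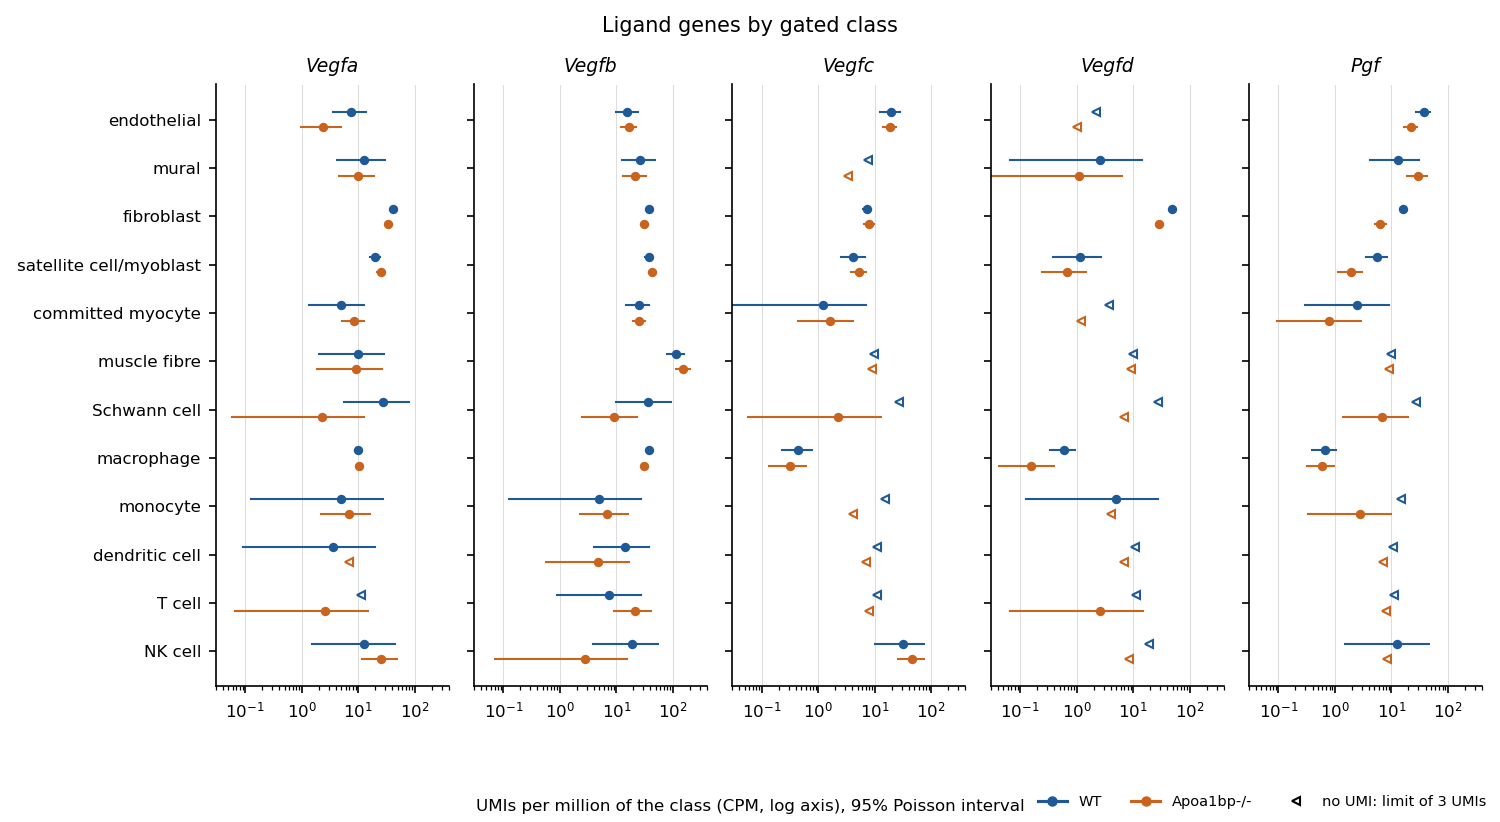
Levels of the 5 ligand genes in the 12 gated classes, in CPM of the class on a log axis, for the WT library (blue) and the Apoa1bp-/- library (orange), with 95% Poisson intervals and open triangles, at the level of 3 UMIs, for classes with no UMI. Vegfb is highest in muscle fibres (114 and 151 CPM), Vegfd in fibroblasts (48.7 and 28.7 CPM) and Vegfc in NK and endothelial cells.

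Kdr, the main signalling receptor for Vegfa, was at 758 CPM in WT endothelial cells (713 to 806) and 509.7 CPM in knockout endothelial cells (484 to 536). The gate held 58.6% and 60.8% of all Kdr UMIs, and ungated cells, of which 136 and 143 were led by endothelial markers, another 31.7% and 32.4%. Macrophages had 3.73 and 4.03 CPM and fibroblasts 3.32 and 3.004 CPM. Satellite cells and myoblasts held 1 and 3 Kdr UMIs. At an even depth of 1000 UMIs per cell, reached by thinning, 53.1% of WT endothelial cells (137 of 258) and 39.6% of knockout endothelial cells (111 of 280) had a Kdr UMI, after 54 and 17 shallower cells were left out. The same share was 0.382% and 0.542% in macrophages, a class that should lack the receptor, at medians of 4211 and 6573 UMIs. Without thinning the endothelial shares were 80.4% and 84.8%, in the opposite order to the CPM.

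Flt1 was at 771 CPM in WT endothelial cells (725 to 819) and 465 CPM in knockout endothelial cells (441 to 491). Mural cells came second, at 46.4 CPM from 18 UMIs in 13 of 154 WT cells and 24.7 CPM from 22 UMIs in 14 of 182 knockout cells. The WT mural cells held 0 Kdr UMIs, which allows up to 7.73 CPM, and the knockout mural cells 8 in 3 cells. The mural gate's summed endothelial markers were at 0.929% and 0.8697% of their endothelial level, with 4 and 3 of 10 at 0, while mural Flt1 was at 6.02% and 5.300% of its endothelial level. The gate itself limits endothelial markers but not Flt1, so the marker percentages are low by design. The part of endothelial transcripts in mural Flt1 was not tested.

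Flt4 was at 103 and 55.1 CPM in endothelial cells, which held 75.5% and 65.4% of its UMIs. No other of the 12 classes held more than 6 Flt4 UMIs in either library. Cells gated as lymphatic endothelium (15 and 8 cells) had 1115 and 787 CPM, and 15 and 8 of them had a Flt4 UMI. The lymphatic over the capillary level was 25.2 (17.3 to 37.3) in WT and 26.1 (18.5 to 36.9) in the knockout.

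Nrp1, a co-receptor of Kdr and a receptor of semaphorins, was found in more classes. In WT it was at 473 CPM in endothelial cells, 165 CPM in mural cells, 115 CPM in macrophages and 63.3 CPM in fibroblasts, and no neighbours among these 4 had overlapping intervals. In the knockout library they were at 306, 103, 78.3 and 76.6 CPM, and the last pair overlapped. Macrophages held 50.3% and 38.3% of Nrp1 UMIs, and the endothelial gate 10.2% and 16.9%.

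Nrp2, a co-receptor of Flt4, was at 270.4 and 224 CPM in endothelial cells and 93.5 and 66.2 CPM in macrophages, which held 62.8% and 47.9% of its UMIs. Both neuropilins were higher in cells gated as resident than in those gated as Cx3cr1 class II macrophages. The resident over the Cx3cr1 class II level was 2.12 (1.92 to 2.35) in WT and 2.34 (1.82 to 2.97) in the knockout for Nrp1, and 2.29 (2.02 to 2.59) in WT and 2.15 (1.49 to 3.01) in the knockout for Nrp2. Nrp2 was also higher in cells gated as lipid-associated than in Cx3cr1 class II macrophages. That level ratio was 1.84 (1.67 to 2.04) in WT and 2.30 (2.05 to 2.57) in the knockout. The resident over the lipid-associated level of Nrp2 was 1.24 (1.11 to 1.39) in WT and 0.936 (0.656 to 1.30) in the knockout. Monocytes had Nrp2 at 89.6 CPM in WT (18 UMIs) and 11.01 CPM in the knockout (8 UMIs), a ratio of 0.123 (0.0462 to 0.297), but the WT gate held 51 cells, 17 of them with just 3 markers. The monocyte gate's own markers were at 5045 and 11717.5 CPM. B cell markers in it were at 179 and 61.9 CPM and neutrophil markers at 219 and 391 CPM, and their part was not tested.

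**Figure D2:**
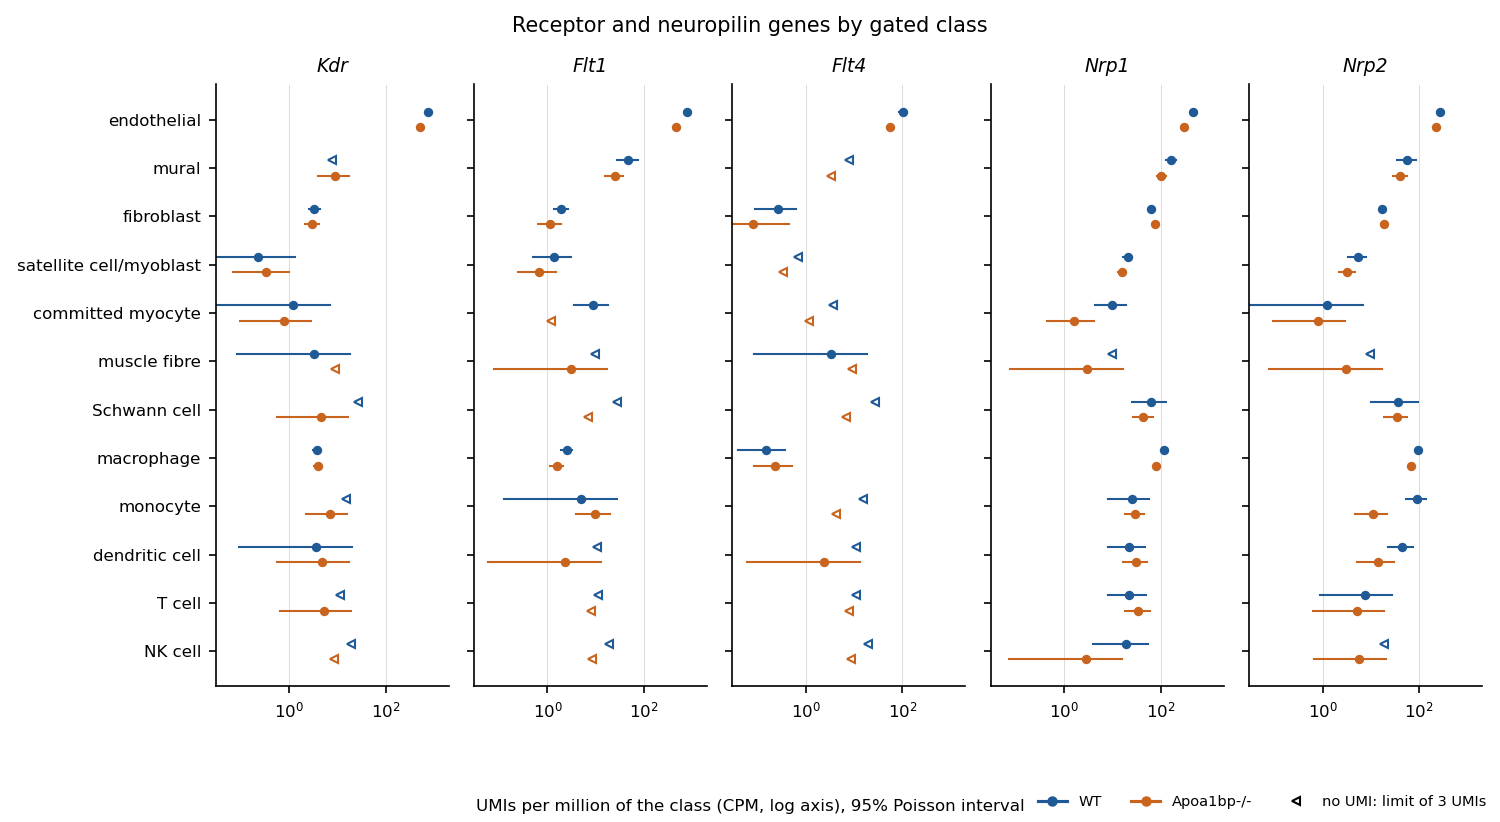
Levels of the 3 receptor and 2 neuropilin genes in the 12 gated classes, in CPM of the class on a log axis, for the WT library (blue) and the Apoa1bp-/- library (orange), with 95% Poisson intervals and open triangles, at the level of 3 UMIs, for classes with no UMI. Kdr, Flt1 and Flt4 stand highest in endothelial cells, where the knockout point lies left of the WT point (509.7 against 758 CPM for Kdr), and the neuropilins extend to mural cells, macrophages and fibroblasts.

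The endothelial subclasses had different combinations of the receptors. Lymphatic cells had Kdr at 861 and 528 CPM and Nrp2 at 760.1 and 642 CPM, but 0 Flt1 and 0 Nrp1 UMIs in WT, which allows up to 38.01 CPM. In the knockout library 1 of 8 lymphatic cells had Flt1 UMIs and 1 had Nrp1 UMIs. Capillary cells were at 929 and 475 CPM of Flt1 and 549 and 325 CPM of Nrp1. The arterial cells were low in Nrp2, with an arterial over capillary level of 0.0995 (0.01199 to 0.363) in WT and 0.179 (0.0886 to 0.323) in the knockout, and lower in Kdr, at 0.541 (0.374 to 0.759) in WT and 0.438 (0.337 to 0.562) in the knockout. Cells gated as venous (10 and 12 cells) had Nrp2 at 483 and 672 CPM, and their level over the capillary one was 1.84 (1.06 to 3.01) in WT and 2.904 (2.000 to 4.09) in the knockout. Tip cells had less Flt1 than capillary cells, at 0.253 (0.141 to 0.419) in WT and 0.117 (0.0505 to 0.232) in the knockout.

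**Figure D3:**
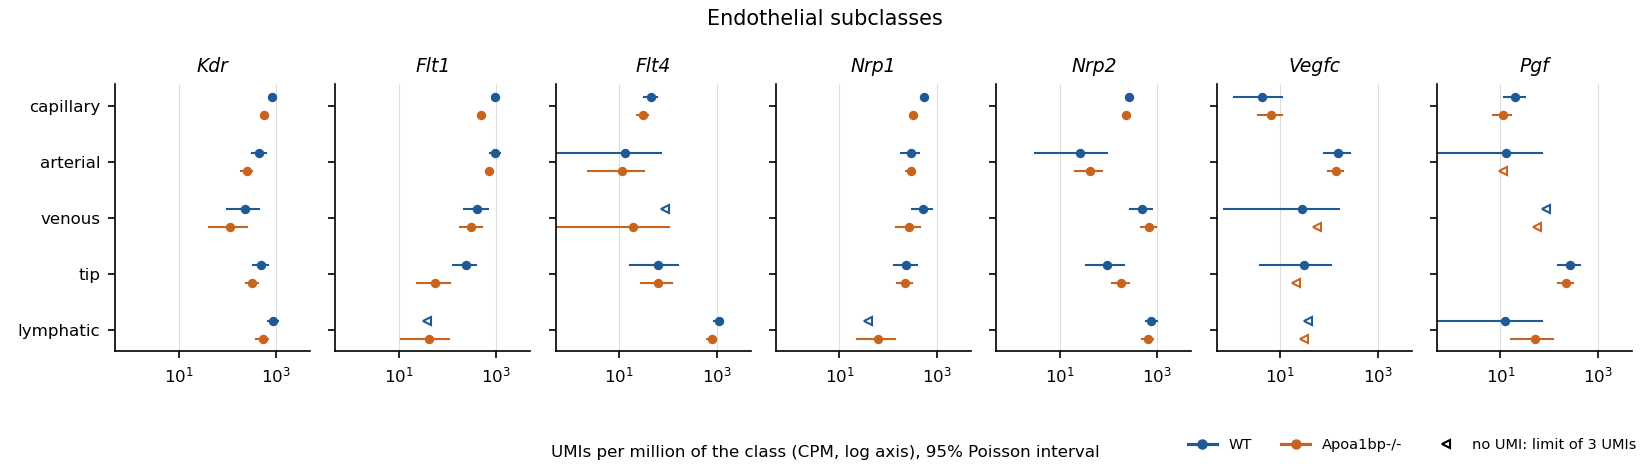
Levels of 7 member genes in the 5 endothelial subclasses, in CPM of the subclass on a log axis, for the WT library (blue) and the Apoa1bp-/- library (orange), with 95% Poisson intervals and open triangles, at the level of 3 UMIs, for no UMI. Flt4 is highest in lymphatic cells (1115 and 787 CPM), Vegfc in arterial cells (157 and 139 CPM) and Pgf in tip cells (266 and 223 CPM), and intervals are wide outside the capillary cells.

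Between genotypes, the receptors and Nrp1 were lower in the endothelial cells of the knockout library. Of the 9 members measured there (at least 5 CPM in either library), 6 were at or below a ratio of 0.8, against 35.2% of all 10226 genes measured in the class, and 0 at or above its reciprocal, against 18.6%. The median log2 ratio was -0.63 over these members and -0.15 over all measured genes. Flt4 had a ratio of 0.536 (0.424 to 0.677), Flt1 of 0.603 (0.556 to 0.655), Nrp1 of 0.647 (0.584 to 0.718) and Kdr of 0.672 (0.6201 to 0.728). Nrp2 was at 0.8298 (0.729 to 0.946), nearer to 1. Vegfa, with 10 and 7 UMIs, is among the lower members but has too few for a ratio to be given. Of the other ligands, Pgf was lower at 0.592 (0.402 to 0.875) over the gate, while within capillary cells, at 0.558 (0.293 to 1.08), and tip cells, at 0.837 (0.451 to 1.61), the interval included 1. The intervals of Vegfb, at 1.06 (0.621 to 1.86), and Vegfc, at 0.9604 (0.591 to 1.598), included 1, and neither direction was stable. Vegfb was at 0.461 when cells were thinned and at 1.71 when the gate was thinned too, and Vegfc lay between 0.557 and 1.07 over the alternatives.

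Capillary cells, 74.04% and 71.04% of the gate, had the same directions for the receptors. Their ratios were 0.671 (0.614 to 0.735) for Kdr, 0.511 (0.467 to 0.5600) for Flt1 and 0.592 (0.527 to 0.664) for Nrp1. For Nrp2, at 0.883 (0.757 to 1.03), the interval included 1. Arterial cells had Kdr at 0.544 (0.356 to 0.844) and Nrp1 at 1.01 (0.621 to 1.702). Endothelial cells of no subclass (23 and 26 cells) had Flt1 in the other direction, at 1.48 (1.07 to 2.06), and Kdr at 0.854 (0.6304 to 1.16). Lymphatic cells were 4.81% of the WT and 2.69% of the knockout gate and held 88 of its 139 WT and 76 of its 161 knockout Flt4 UMIs. Without them the Flt4 ratio was 0.7504, and it was 0.683 (0.457 to 1.03) within capillary and 0.706 (0.513 to 0.971) within lymphatic cells.

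Over all kept cells the receptor genes had the opposite direction, with ratios of 1.31 (1.23 to 1.397) for Kdr, 1.15 (1.08 to 1.23) for Flt1 and 1.254 (1.03 to 1.53) for Flt4. Endothelial cells were 2.54% of the WT and 3.49% of the knockout cells. A level over all kept cells is a share of UMIs, not of cells. The endothelial gate held 1350088 of 66423765 kept UMIs in WT and 2919614 of 70823238 in the knockout. In ungated cells Kdr was at 46.1 and 57.03 CPM, a ratio of 1.24 (1.11 to 1.38). The summed endothelial markers within the gate had a ratio of 0.977. Cells entered the gate by these same markers, so this ratio is not independent of the gate. Of the 15 marker lists of other classes, 8 had summed levels in the gate at or below a ratio of 0.8 and 3 at or above its reciprocal. The macrophage list was at 335 and 167 CPM, with 0 and 0 of 10 genes at 0, the mural list at 209.6 and 80.8 CPM, with 1 and 1 of 10 at 0, and the fibroblast list at 87.4 and 49.7 CPM, with 0 and 1 of 10 at 0. The higher lists were those of satellite cells and myoblasts, with a ratio of 4.82 from 5.18 CPM in WT, committed myocytes, with 2.17 from 19.3 CPM, and Schwann cells, with 2.89 from 2.96 CPM. The part of these lists, and of the depth of 2247 against 6943 UMIs, in the ratios was not tested.

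**Figure D4:**
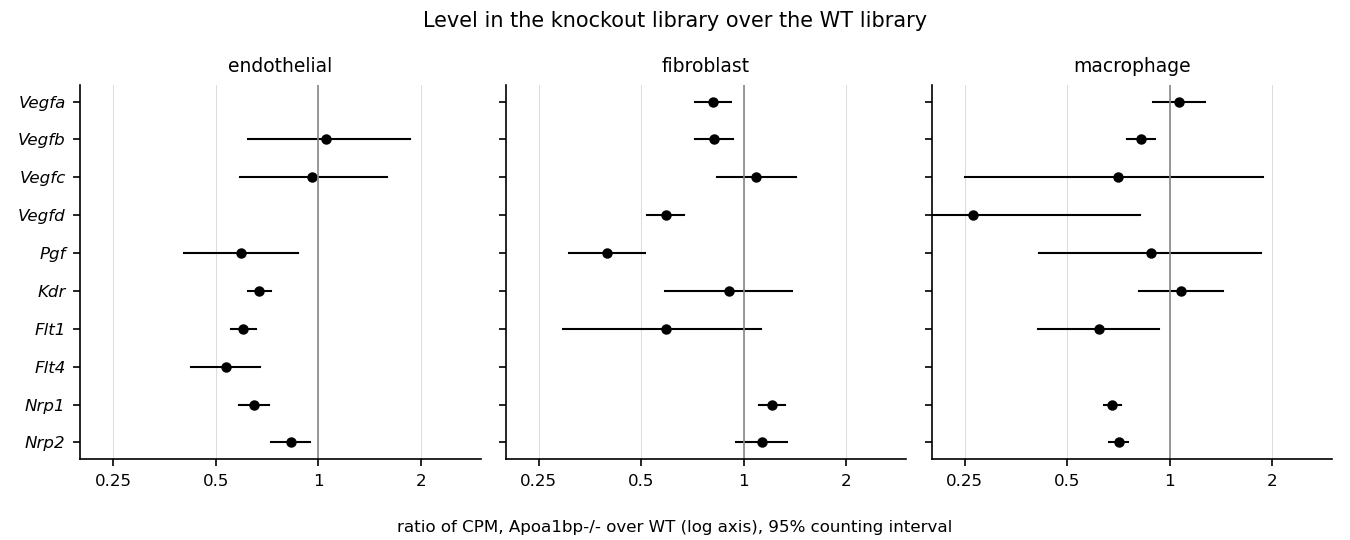
Level in the Apoa1bp-/- library over that in the WT library for each member with at least 20 UMIs in both libraries together, on a log axis, in endothelial cells, fibroblasts and macrophages, with exact 95% counting intervals and a line at 1. In endothelial cells Kdr, Flt1, Flt4, Nrp1 and Pgf lie between 0.536 and 0.672, in fibroblasts Pgf lies at 0.397 and Vegfd at 0.589, and in macrophages Nrp1 and Nrp2 lie at 0.679 and 0.708.

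In fibroblasts 7 members were measured, of which 2 were at or below a ratio of 0.8, against 29.3% of all 10372 genes measured in the class, and 0 at or above its reciprocal, against 17.3%. The lower ones were Pgf, with a ratio of 0.397 (0.305 to 0.511), and Vegfd, with 0.589 (0.519 to 0.666). Vegfa was at 0.811 (0.719 to 0.914) and Vegfb at 0.818 (0.7201 to 0.929). With cells thinned to an even depth the ratios of Vegfa and Pgf were further from 1, at 0.514 and 0.245. Vegfc was at 1.09 (0.832 to 1.42) and Nrp1 at 1.21 (1.11 to 1.32). The gate's own fibroblast markers had a summed ratio of 0.789, at 9061 and 7153 CPM. Macrophage markers in it were at 388 and 249 CPM, mural markers at 109 and 165 CPM and monocyte markers at 420.0 and 577 CPM, and the part of these lists in the ratios was not tested.

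The makeup of the fibroblast class differed between the libraries. Cells gated as Pi16 progenitors, fibroblasts of the adventitia, were 34.8% of WT and 15.8% of knockout fibroblasts, and those gated as activated were 21.8% and 39.4%. Vegfd was higher in the former, with a Pi16 progenitor over activated level of 5.85 (4.85 to 7.09) in WT and 6.48 (5.07 to 8.29) in the knockout, and so was Vegfa, at 3.52 (2.89 to 4.31) in WT and 2.23 (1.71 to 2.89) in the knockout. Within Pi16 progenitors Vegfd was at 111 and 109.7 CPM, a ratio of 0.986 (0.817 to 1.18), and within activated cells at 19.1 and 16.9 CPM, a ratio of 0.889 (0.692 to 1.14). Interstitial fibroblasts had a Vegfd ratio of 0.792 (0.570 to 1.09). Fibroblasts of no subclass (189 and 80 cells) had ratios of 0.550 (0.326 to 0.896) for Vegfd and 0.294 (0.139 to 0.565) for Vegfa. The equal weighting that follows leaves out these cells of no subclass. With the subclasses weighted equally, the class ratio of Vegfd was 0.943 in place of 0.589, that of Vegfa 0.989 in place of 0.811, and that of Pgf 0.582 in place of 0.397.

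Some members differed within a subclass. Vegfa was at 19.5 and 27.9 CPM in activated fibroblasts, a ratio of 1.43 (1.15 to 1.79), while its ratios in Pi16 progenitors, 0.908 (0.707 to 1.15), and interstitial fibroblasts, 0.919 (0.731 to 1.15), had intervals that included 1. Pgf was at 19.5 and 6.15 CPM in interstitial fibroblasts, a ratio of 0.315 (0.179 to 0.523), and at 4.14 and 4.099 CPM in activated ones. Nrp1 was at 73.9 and 112 CPM in interstitial fibroblasts, a ratio of 1.51 (1.300 to 1.76), against 0.9798 (0.863 to 1.11) in activated ones. Whether the ratios differ between subclasses was not tested.

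**Figure D5:**
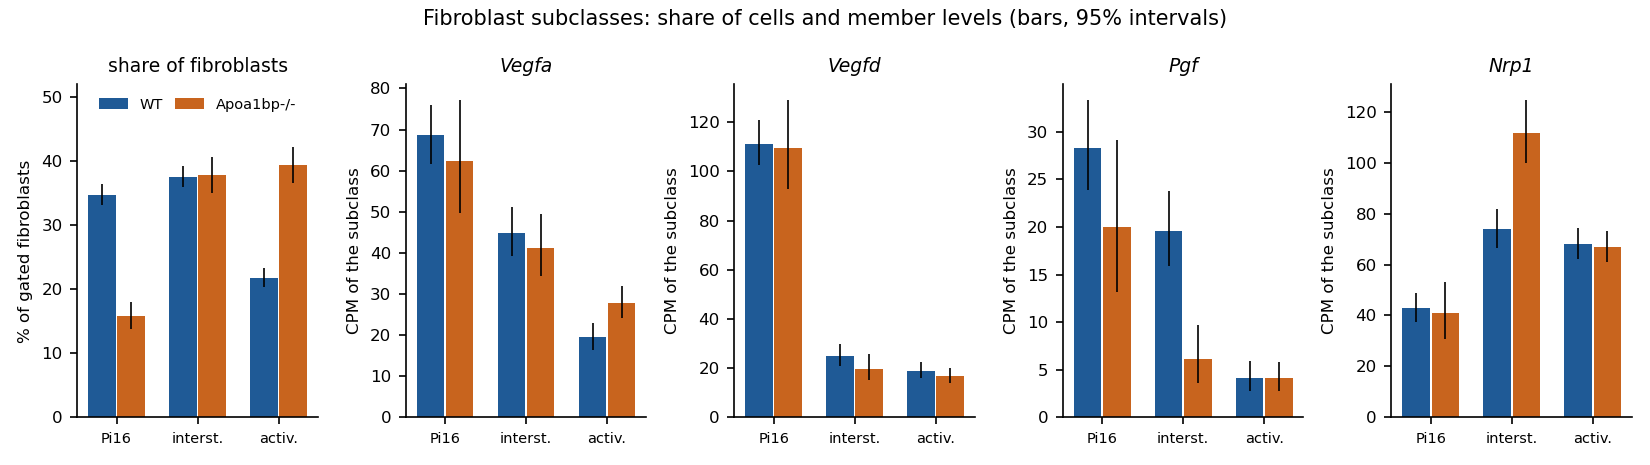
Share of gated fibroblasts in each of 3 subclasses (left, percent of fibroblasts) and levels of Vegfa, Vegfd, Pgf and Nrp1 in them (CPM of the subclass), for the WT library (blue) and the Apoa1bp-/- library (orange), as bars with exact 95% intervals. Vegfd is high in Pi16 progenitors of both libraries (111 and 109.7 CPM), whose share is 34.8% in WT and 15.8% in the knockout, and the Nrp1 bars stand apart in interstitial cells (73.9 and 112 CPM).

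In macrophages 4 members were measured, of which 2 were at or below a ratio of 0.8, against 28.9% of all 9174 genes measured in the class, and 0 at or above its reciprocal, against 9.79%. The lower ones were the neuropilins, with ratios of 0.679 (0.642 to 0.719) for Nrp1 and 0.708 (0.666 to 0.753) for Nrp2. Vegfb was at 0.825 (0.751 to 0.906) and Vegfa at 1.07 (0.897 to 1.27), with Vegfa at 1.79 when gate and level came from thinned cells and 0.908 with subclasses weighted equally. The gate's own markers had a summed ratio of 1.01. Fibroblast markers in it were at 96.1 and 32.5 CPM, dendritic cell markers at 164 and 81.5 CPM, mural markers at 19.5 and 9.99 CPM and monocyte markers at 265 and 373 CPM, and their part was not tested. Resident macrophages were 14.7% of WT and 2.42% of knockout macrophages. Within the subclasses the Nrp1 ratio was 0.897 (0.697 to 1.14) in resident, 0.666 (0.609 to 0.729) in lipid-associated and 0.813 (0.739 to 0.894) in Cx3cr1 class II macrophages. The Nrp2 ratio was 0.637 (0.443 to 0.891), 0.845 (0.777 to 0.9195) and 0.678 (0.598 to 0.768) in the same order.

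In satellite cells and myoblasts 6 members were measured, of which 3 were at or below a ratio of 0.8, against 27.7% of all 10173 genes measured in the class, and 0 at or above its reciprocal, against 19.9%. The lower ones were Pgf, at 5.56 and 1.91 CPM (24 and 17 UMIs), a ratio of 0.343 (0.173 to 0.667), Nrp1, at 0.746 (0.567 to 0.986), and Nrp2, at 0.611 (0.342 to 1.11). Vegfa was at 1.24 (0.961 to 1.604). In this gate fibroblast markers were at 477 and 258 CPM, mural markers at 256 and 146 CPM, committed myocyte markers at 407 and 668 CPM and its own markers at 2174 and 1804 CPM, and their part was not tested. In mural cells 7 members were measured, of which 4 were at or below a ratio of 0.8, against 39.8% of all 11294 genes measured in the class, and 2 at or above its reciprocal, against 25.7%. Of these 7, Vegfa had 5 and 9 UMIs and Kdr 0 and 8, too few for a ratio. Mural Nrp1 had a ratio of 0.625 (0.449 to 0.874), and the intervals of Flt1, at 0.531 (0.272 to 1.05), and Pgf, at 2.26 (0.854 to 7.54), included 1. The mural Flt1 ratio lay on the other side of 1, at 1.76, when cells were thinned to 1000 UMIs.

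Genes around the receptors were taken from lists of known pathway members. Of 8 measured class 3 semaphorins and plexins, the other ligands and receptors of the neuropilin system, 7 were at or below 0.8 in endothelial cells, against 35.2% of all genes, and 1 at or above the reciprocal of 0.8, against 18.6%, with a median log2 ratio of -0.60 against -0.15 over all genes. The ligands Sema3a and Sema3d were at 19.3 and 1.71 CPM (26 and 5 UMIs) and 22.96 and 5.14 CPM (31 and 15 UMIs), and the receptor genes Plxnd1 and Plxna2 had ratios of 0.753 (0.686 to 0.827) and 0.658 (0.533 to 0.813). Of 9 genes whose proteins act on the receptors at the membrane, 6 were at or below 0.8 and 0 at or above the reciprocal of 0.8, against the same 35.2% and 18.6%, with a median of -0.71. Efnb2, an ephrin that takes part in receptor uptake and is among the arterial markers used here, had a ratio of 0.612 (0.532 to 0.704). The endocytic adaptor gene Dab2 was at 0.515 (0.404 to 0.655) and the integrin gene Itgav at 0.418 (0.241 to 0.7197), while the phosphatase gene Ptprj had 9 and 2 UMIs.

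The kinases and adaptors downstream of the receptors lay closer to the other genes. Of 18 measured, 5 were at or below 0.8 and 0 at or above the reciprocal of 0.8, against the same 35.2% and 18.6%, with a median of -0.13. Mapk3 (ERK1) was at 0.951 (0.823 to 1.101) and the adaptor gene Nck1 at 0.804 (0.688 to 0.941), while Pik3ca was at 0.612 (0.438 to 0.858) and Prkcd at 0.525 (0.284 to 0.978). Of 14 measured genes that VEGF is known to induce in endothelium, 7 were at or below 0.8 and 3 at or above the reciprocal of 0.8, against 35.2% and 18.6% of all endothelial genes. Their median log2 ratio was -0.30, against -0.15 over all measured genes. The early response gene Egr3 had 20 and 5 UMIs and Nr4a2 7 and 8 UMIs, while Egr1 was at 242 and 296 CPM, a ratio of 1.22 (1.07 to 1.39), and Cd34 at 0.9502 (0.879 to 1.03). Lower genes with more UMIs than Egr3 and Nr4a2, such as Apln and Dll4, fall outside the rule by which genes were named. So do the 3 genes at or above the reciprocal of 0.8, which are Nr4a1, Dusp5 and Hlx.

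Of 7 measured hypoxia sensing genes, 2 were at or below 0.8 and 1 at or above the reciprocal of 0.8 in endothelial cells, shares no higher than the 35.2% and 18.6% of all genes. The hypoxia-inducible factor genes Epas1 and Hif1a were at 0.752 (0.6802 to 0.832) and 0.879 (0.743 to 1.04), their partner Arnt at 0.743 (0.534 to 1.04) and the inhibitor Hif1an at 1.54 (0.793 to 3.23). Of 9 measured genes other than Vegfa that hypoxia induces, 3 were at or below 0.8 and 3 at or above the reciprocal of 0.8, against 35.2% and 18.6% of all endothelial genes. The glycolytic genes Pgk1 and Ldha were at 1.601 (1.29 to 2.003) and 1.096 (0.975 to 1.23), Ankrd37 at 1.98 (1.01 to 4.22) and Ndrg1 at 0.789 (0.676 to 0.921). In fibroblasts, which held the most Vegfa UMIs, 5 of 9 such genes were at or above the reciprocal of 0.8 and 2 at or below 0.8, against 17.3% and 29.3% of all fibroblast genes, with Pgk1 at 1.84 (1.74 to 1.95), Ldha at 1.54 (1.48 to 1.598) and Ndrg1 at 0.3896 (0.336 to 0.4497).

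Of the enzymes that cleave Vegfc and Vegfd into their active forms and their cofactor, 6 of 7 were measured in fibroblasts, which held most Vegfd UMIs. There 2 were at or below 0.8 and 0 at or above the reciprocal of 0.8, against 29.3% and 17.3% of all genes, with Adamts14 at 0.659 (0.538 to 0.803), Ctsd at 0.753 (0.7201 to 0.787) and Furin at 1.08 (0.981 to 1.18). In endothelial cells 3 were measured, with Ctsd at 0.684 (0.593 to 0.7896), Pcsk7 at 0.7803 (0.539 to 1.14) and Furin at 0.864 (0.649 to 1.16). The semaphorin gene Sema3c was at 375 and 156 CPM in fibroblasts, a ratio of 0.416 (0.396 to 0.438), and it is one of the markers of the Pi16 progenitors.

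The genes with the most similar level profiles over the 12 classes of both libraries (24 points, 11252 candidate genes, Pearson's r of log2 levels as a description) differed by member. For the receptors they were Stmn2 (0.94), Aqp7 (0.94) and Sox17 (0.92) for Kdr, Gja5 (0.92), Pcdh12 (0.90) and Nova2 (0.90) for Flt1 and Ccl21a (0.97), Tmem252 (0.96) and Bcl6b (0.96) for Flt4. Stmn2 and Gja5 are among the arterial markers, Ccl21a among the lymphatic and Tmem252 among the venous ones. Vegfd was most like Sfrp2 (0.91), Itga11 (0.91) and Has1 (0.90), and Pgf most like Acy3 (0.92), Myo1d (0.87) and Runx1t1 (0.85). Values of r were lower for Vegfa, with Gstm1 (0.73), Gpx3 (0.72) and Fam210a (0.67), for Vegfb, with Fech (0.79), Romo1 (0.79) and Tmem38a (0.79), and for Vegfc, with Tcf3 (0.78), Ugcg (0.75) and Nck1 (0.74). The nearest genes were Itm2c (0.87), Tnfrsf1a (0.86) and Mgat1 (0.86) for Nrp1 and Sult1a1 (0.86), Eng (0.84) and Itprid2 (0.84) for Nrp2. The points share library and depth, so these values rank genes and carry no test.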

How the data were processed

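Adductor muscle was profiled as 10x Genomics single-cell RNA libraries, 1 WT and 1 Apoa1bp-/-. The authors deposited raw UMI counts per gene and barcode. Cell Ranger 2.1.1 is named in the submitters' processing notes and 5.0.0 per the file headers, and which made the matrices is unsettled, with the build not given in the sources used here. Barcodes with under 200 genes or over 10% mitochondrial UMIs and Scrublet-called doublets (11.2% and 7.08% of those tested) were removed from 14035 WT and 9392 knockout barcodes, leaving 66423765 and 70823238 UMIs.

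A class took a cell with UMIs of at least 3 of its markers, the highest share of markers, and at least 2 times the share of any class of another compartment. Subclasses needed 2 markers and the largest share. Equal weighting used subclasses with at least 20 cells in each library, which in the endothelium are the arterial and capillary ones. UMIs were summed per class and library and divided by the class total (CPM), with exact Poisson intervals. Ratios have exact conditional intervals and are given from 20 UMIs in both libraries together. Counts of members and of all genes at a fold limit both took genes of at least 5 CPM in either library. Medians over gene lists used a prior count of 0.5. Shares of cells have exact Clopper-Pearson intervals, and profiles used log2(CPM + 1) of genes reaching 20 CPM. The interval code was tested on simulated data. Named genes were the members and, per list and class, the 2 with the largest log2 ratio in size and the 2 with the most UMIs. Members, lists and markers were chosen with earlier results of these data known. Gates, thinning, weighting, scaling and filters were varied. Python 3.11.15, NumPy 2.4.6, SciPy 1.17.1, pandas 2.3.3, Scanpy 1.11.5 and matplotlib 3.10.9 were used.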

Additional observations from a re-analysis of the deposited data

How the results depend on the processing

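No paired analysis was possible because each genotype has 1 library, and for the same reason no replicate could be left out. Of 149 alternative values of the 13 main genotype ratios, 115 moved by less than the counting interval, 34 moved by more and 0 crossed 1. The main ratios are those of Kdr, Flt1, Flt4, Nrp1, Nrp2 and Pgf in endothelial cells. They also include Vegfa, Vegfd, Pgf and Nrp1 in fibroblasts, and Vegfb, Nrp1 and Nrp2 in macrophages. Every ratio that crossed 1 is among the 12 other ratios, so the 0 holds for the main ones only. As a mean over cells, the ratio was 0.595 for Kdr, 0.5496 for Flt1 in endothelial cells, and 0.652 for Vegfa in fibroblasts, and 0.629 for Nrp2 in macrophages. With cells thinned to 1000 UMIs, the ratio was 0.596 for Kdr, 0.703 for Flt1, 0.948 for Nrp2 in endothelial cells, and 0.514 for Vegfa, 0.699 for Vegfd, 0.245 for Pgf, 1.07 for Nrp1 in fibroblasts, and 0.706 for Vegfb, 0.651 for Nrp2 in macrophages. Divided by the median ratio of all measured genes, the ratio was 0.743 for Kdr, 0.667 for Flt1 in endothelial cells, and 0.909 for Vegfb, 0.749 for Nrp1, 0.7803 for Nrp2 in macrophages. With gate and level both from thinned cells, the ratio was 0.673 for Flt1 in endothelial cells, and 0.584 for Vegfa, 0.7197 for Vegfd, 0.258 for Pgf, 1.06 for Nrp1 in fibroblasts, and 0.749 for Vegfb, 0.659 for Nrp2 in macrophages. Without lymphatic cells, an alternative chosen after seeing the data, the ratio was 0.7504 for Flt4 in endothelial cells. With subclasses weighted equally, the ratio was 0.725 for Flt4, 0.735 for Nrp1, 0.947 for Nrp2, 0.338 for Pgf in endothelial cells, and 0.989 for Vegfa, 0.943 for Vegfd, 0.582 for Pgf in fibroblasts, and 0.814 for Nrp1 in macrophages. Among the other ratios, those past a fold limit that crossed 1 were Flt1 in mural cells when thinned (1.76) and with gate and level thinned (1.44), and Vegfb in muscle fibres as a mean over cells (0.992). Ratios nearer to 1 that lay on both sides of it were Nrp2 in fibroblasts (0.851 to 1.31), Vegfa in macrophages (0.908 to 1.79), Vegfb in endothelial cells (0.461 to 1.71), Vegfc in endothelial cells (0.557 to 1.07) and Vegfc in fibroblasts (0.8898 to 1.22). Endothelial genes at or above the reciprocal of 0.8 numbered 1900 of 10226 measured (18.6%), and 3122 and 3304 in the thinned settings. The numbers of genes measured in the thinned settings are not given here, so these counts cannot be compared as shares. The equal weighting of endothelial Pgf rests on 1 WT and 0 knockout arterial UMIs, and that of Flt4 on 1 and 3. The Flt4 weighting also leaves out lymphatic cells, and the Flt4 ratio without lymphatic cells is given without an interval. The cause of the other shifts was not tested. Subclasses other than capillary rest on few endothelial cells, and the WT endothelial depth limits rare transcripts.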
